A study of Mus musculus with 18 samples.

Results

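Asparagine synthetase (Asns), serine synthesis enzymes and the stress hormone Gdf15 belong to the genes that cells switch on through the transcription factor ATF4 when amino acids run short. The 10 genes described here, Atf4, Ddit3, Trib3, Asns, Phgdh, Psat1, Chac1, Sesn2, Stc2 and Gdf15, were taken by name from the 22298 genes of the deposited tables, after the Ensembl identifiers had been matched to mouse symbols in GENCODE M21. RNA-seq was done on liver and on 2 white fat depots, the epididymal (eWAT) and the inguinal (iWAT), of mice with and without Cre recombinase on a floxed Bckdha background. Bckdha encodes a subunit of the enzyme complex that commits branched-chain amino acids to breakdown. Each of the 6 groups, a tissue in a genotype, held 3 libraries, 18 in all.

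The group called KO carried Bckdhaf/f together with RIP-Cre, and the group called WT carried Bckdhaf/f alone, so that the floxed allele was common to every animal. All mice were C57BL/6 and 12 weeks old. RIP-Cre commonly stands for a rat insulin promoter that drives Cre in beta cells of the pancreas and some neurons, so that the fat and the liver sampled here are not tissues in which the promoter is known to act. A control with RIP-Cre on an unfloxed background was not analysed here, and an effect of RIP-Cre itself and of the loss of Bckdha cannot be told apart. Bckdha RNA lay between 52.9 and 348 CPM (reads scaled to a common library size) in eWAT WT and between 103 and 160 CPM in eWAT KO, and its groups overlapped in iWAT and liver as well. In edgeR's test Bckdha differed between genotypes in none of the 3 tissues, with adjusted p-values of 0.802 in eWAT, 1 in iWAT and 0.953 in liver. Since no label states that replicate libraries stem from different animals, p-values here reflect library-to-library spread, which may be technical.

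The pathway works by translation. Amino acid shortage, endoplasmic reticulum stress, viral RNA or lack of haem each activate a kinase that phosphorylates the initiation factor eIF2alpha, which slows most protein synthesis but lets the Atf4 message be translated. ATF4 protein then raises the transcription of genes for amino acid synthesis, uptake and tRNA charging, of Ddit3 (CHOP) and Trib3, and, in many cells, of secreted factors such as GDF15 and FGF21 that act on the brain or on other organs. Because the first step is translational, the Atf4 message is not itself a measure of ATF4 protein.

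Total expected counts lay between 16796147 and 28039742 per library. One library stood apart from its label: eWAT WT replicate 2 held 17.1 CPM of the adipocyte hormone Adipoq, against 961 to 3880 CPM in the other 5 eWAT libraries. The same library held 31100 CPM of Gpx5, a caput epididymis gene, on a scale over all 18 libraries, where the other eWAT libraries held at most 21.4 CPM of Gpx5. Crisp1, another epididymal gene, was abundant in eWAT WT replicate 2 (767 CPM), KO replicate 1 (1080 CPM) and KO replicate 3 (1230 CPM) and reached at most 1.49 CPM in the remaining eWAT libraries. On the same scale, smooth muscle markers summed to 2420 and 2310 CPM in eWAT KO replicates 1 and 3 and to 128 to 590 CPM in the rest of eWAT. Spermatid markers summed to 549 CPM in eWAT KO replicate 1 and to at most 68.7 CPM in the rest of eWAT. Another library in each depot also differed from the rest. Mitochondrially encoded genes took 15.51% of the reads of eWAT WT replicate 3 and 3.35% to 5.97% in the other eWAT libraries. On the scale over all 18 libraries, B cell markers summed to 5.16 CPM in iWAT WT replicate 2 against 300 to 1090 CPM in the other iWAT libraries, skeletal muscle markers to 339 against 2.03 to 24.9 CPM, and fibroblast and progenitor markers to 5440 against 1110 to 2090 CPM. All liver libraries held some Adipoq reads, at 0.539 CPM in KO replicate 2 and between 2.63 and 4.39 CPM in the other 5. On the scale over all 18 libraries, Gpx5 was at 26.6 to 34.8 CPM in those 5 liver libraries and at 0 CPM in liver KO replicate 2. In iWAT Gpx5 was at 13.3 to 23.6 CPM, except for 0.0901 CPM in WT replicate 2 and 0.127 CPM in KO replicate 1. The eWAT WT replicate 3 library also held 0 CPM of Gpx5. Where the Gpx5 reads in liver and iWAT came from was not tested.

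The promoters of these genes were read from RefSeq (GRCm38.p6), which held an entry for 10 of the 10, and searched on both strands for TGATGNAA, the core of the element that ATF4 binds with its C/EBP partners. A match was found within 250 bases before and 50 bases after the start site in 3 of the 10 genes, Asns, Chac1 and Trib3, against 3.97% of all 32851 promoters of that length. The 3 matches are shown because Asns carries the largest liver difference and Chac1 and Trib3 are described beside it. The sequences run 5′ to 3′ on the strand of the gene, the match is in capitals, and for Chac1 and Trib3 it lies on the opposite strand. They come from chr6:7693214-7693243 (Asns, minus strand), chr2:119351038-119351067 (Chac1, plus strand) and chr2:152344028-152344057 (Trib3, minus strand).
Asns: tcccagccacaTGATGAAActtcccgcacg
Chac1: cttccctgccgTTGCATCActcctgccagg
Trib3: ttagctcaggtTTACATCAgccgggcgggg

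Gdf15, which carries the largest difference in eWAT, had no match around either of its RefSeq start sites. That says only that these letters are not in the windows searched. Its 250 bases before the upstream start site, at chr8:70632457-70632706 on the minus strand, are shown in lower case throughout, since they hold no match.
Gdf15: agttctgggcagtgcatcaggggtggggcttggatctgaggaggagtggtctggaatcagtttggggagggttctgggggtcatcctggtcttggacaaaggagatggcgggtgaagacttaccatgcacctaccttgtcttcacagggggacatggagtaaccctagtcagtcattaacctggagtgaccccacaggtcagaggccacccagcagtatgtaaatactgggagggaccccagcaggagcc

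Per gene length and over both genotypes together, Atf4 had the highest median of the 10 in every tissue and Gdf15 the lowest in both fat depots. On the scale of the deposited FPKM (reads scaled by gene length and depth), the median level of Atf4 over the 6 libraries of both genotypes was 107 in eWAT, 103 in iWAT and 61.1 in liver. In eWAT it was followed by Phgdh at 97.6 FPKM, Asns at 81.7 and Psat1 at 75.7, whose ranges over libraries overlapped with that of Atf4. Within WT eWAT alone the medians were 127 for Psat1, 126 for Asns, 96.1 for Phgdh and 93.0 for Atf4. Next in eWAT over both genotypes came Ddit3 at 26.8, Sesn2 at 10.8, Stc2 at 6.03, Trib3 at 5.22, Chac1 at 3.34 and Gdf15 at 0.84. The order in iWAT was the same but for Stc2 and Trib3, neighbours whose ranges overlapped, and the lowest gene, Gdf15, had a median of 0.955 FPKM there. In liver the serine enzymes left the top of the order: Psat1 had a median of 0.40 FPKM, Phgdh of 0.305 and Stc2 of 0.045, while Gdf15, at 1.76 FPKM, stood above Trib3, Chac1 and all 3 of these.

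**Figure D1:**
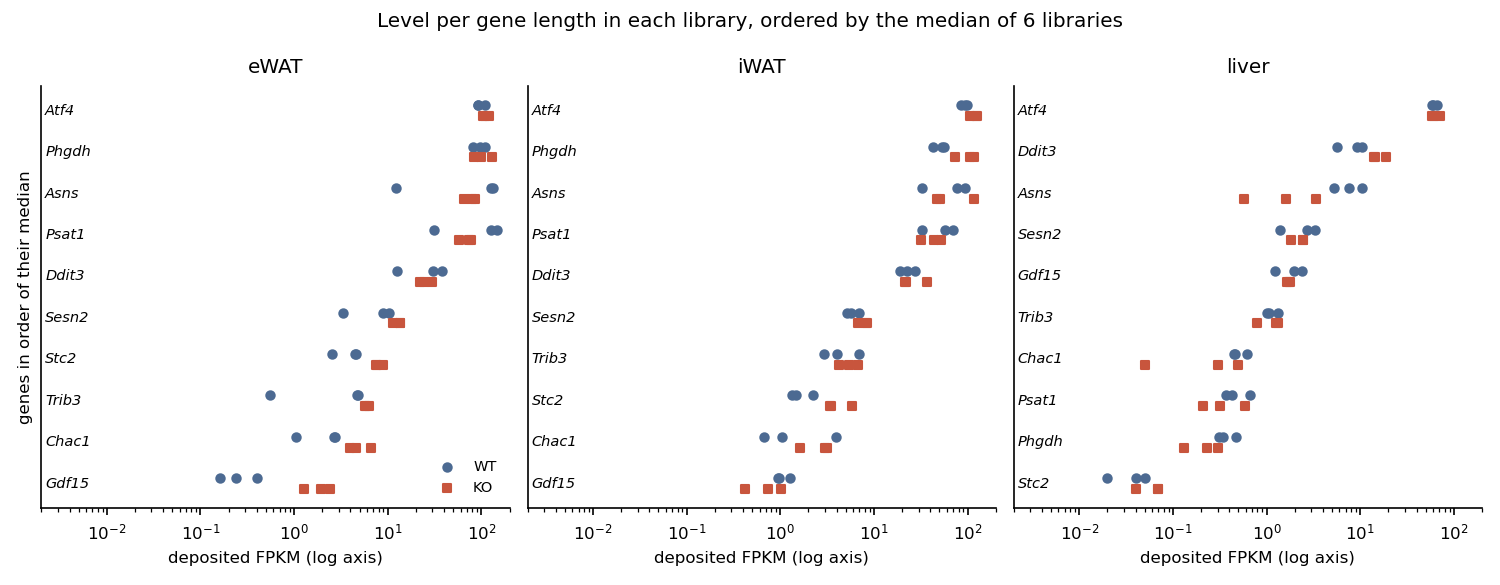
Deposited FPKM (horizontal log axis) of the 10 genes in each library of eWAT, iWAT and liver; genes run from the highest to the lowest median of 6 libraries, circles are WT and squares KO libraries. Phgdh and Psat1 lie near Atf4 in fat and at or below 0.66 FPKM in liver, and eWAT WT replicate 2 is the low point for Asns, Psat1, Ddit3 and Trib3.

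The 2 serine synthesis enzymes and Stc2 carried the largest tissue differences. Phgdh, which takes glycolytic 3-phosphoglycerate into serine synthesis, was lower in WT liver than in WT eWAT, with a log2 difference of -6.74 ± 0.34 (SE) and an edgeR adjusted p of 4.26e-06. Psat1, the transaminase of the next step, differed by -6.57 ± 0.75, with an edgeR adjusted p of 0.000317. Stc2, a secreted glycoprotein, differed by -5.26 ± 0.46, with an edgeR adjusted p of 6.82e-05. Against WT iWAT the log2 differences of Phgdh, Psat1 and Stc2 in WT liver were -5.7, -5.48 and -3.95, again past the threshold. In KO libraries, fitted separately and sharing no library with the WT fit, the log2 differences of Phgdh, Psat1 and Stc2 between liver and eWAT were -7.50, -6.00 and -5.63, each past the threshold. Liver counts of these genes were small, 2 to 5 reads per library for Stc2, 5 to 20 for Phgdh and 14 to 35 for Psat1, and their CPM was at or below that of Adipoq in every liver library. Whether some of the liver reads of Phgdh, Psat1 and Stc2 came from fat or from other samples was not tested.

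Gdf15 ran the other way. On a scale over all tissues its RNA in WT libraries was 4.19 ± 0.54 (SE) higher on the log2 scale in liver than in eWAT, an 18.2-fold difference with an edgeR adjusted p of 0.000609, and 2.21 ± 0.49 higher than in iWAT, with an edgeR adjusted p of 0.0068. With limma on log2(FPKM + 1), a scale that understates the change of low genes, these differences were 1.16 with an adjusted p of 0.00831 and 0.45 with an adjusted p of 0.18, so that the call against iWAT was lost. FPKM also placed the median of all genes at -0.97 against eWAT and -1.15 against iWAT. In edgeR's fit these medians were -0.25 and -0.26. In KO libraries the liver to eWAT difference of Gdf15 was 1.39 ± 0.41 on the log2 scale, with an edgeR adjusted p of 0.0155, but with limma on log2(FPKM + 1) it was -0.07. The liver to iWAT difference of Gdf15 in KO libraries was 2.77 ± 0.44 on the log2 scale, with an edgeR adjusted p of 0.000499. These comparisons share the liver libraries.

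In all, 5 of the 10 genes passed edgeR's test between WT liver and WT eWAT, Gdf15 higher and Asns, Psat1, Phgdh and Stc2 lower in liver, where 46.6% of all genes passed, 19.5% higher and 27.1% lower in liver. The Asns call, at an edgeR adjusted p of 0.0464, was lost in 10 of 14 alternatives, among them no filter (0.0562). It was also lost in 8 of 9 removals of a single library, with adjusted p-values up to 0.139, while the difference stayed between -2.89 and -1.82. The removal that kept the Asns call was that of eWAT WT replicate 2, the library with little Adipoq, at -2.89 ± 0.47 with an edgeR adjusted p of 0.00155. Between WT liver and WT iWAT it was also 5 of 10, Gdf15 and Atf4 higher and Psat1, Phgdh and Stc2 lower, where 51.1% of all genes passed, 21.8% higher and 29.3% lower in liver. In KO libraries all 10 passed between liver and eWAT, 3 higher (Atf4, Ddit3 and Gdf15) and 7 lower in liver, where 65.6% of all genes did, 29.0% higher and 36.6% lower. The call was lost for Trib3 in 7 of 15 alternatives and for Ddit3 in 6, with 1 more reversed. Without the epididymal KO replicates 1 and 3, which leaves 1 eWAT KO library assumed to vary like the other groups, Atf4 (0.58, edgeR adjusted p = 0.123), Trib3 (-0.94, 0.116) and Ddit3 (0.46, 0.387) did not pass. Between KO liver and KO iWAT 8 of 10 passed, 2 higher (Atf4 and Gdf15) and 6 lower, where 65.8% of all genes did, 28.9% higher and 36.9% lower. There the call was lost in 11 of 14 alternatives for Chac1, in 9 for Trib3 and in 4 for Atf4. Atf4 was higher in liver than in iWAT by 0.82 on the log2 scale in WT, a call lost in 7 of 14 alternatives, but differed by -0.57 with the FPKM values, which place the median of all genes at -1.15 in that comparison. The direction of Atf4 in KO liver against either depot, and of Ddit3 in KO liver against eWAT, turned in the same way with FPKM. Between the depots no member passed in WT, where 0.0139% of all genes did by edgeR and 3 members, Phgdh, Stc2 and Gdf15, had an unadjusted p under 0.05, as did 19.2% of all genes. In KO, Sesn2 passed, lower in iWAT with a log2 difference of -0.68 and an edgeR adjusted p of 0.0346, where 14.3% of all genes passed and 6.44% passed lower in iWAT. That call was lost in 10 of 15 alternatives, among them 7 of 9 removals of a single library, with adjusted p-values up to 0.118 and a difference between -0.90 and -0.54.

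Between KO and WT, none of the 10 genes passed edgeR's test in any tissue. In eWAT 0 of 10 passed, where 0% of 14657 genes passed, and the lowest adjusted p was 0.706. In iWAT 0 of 10 passed, where 0% of 14226 genes passed, and all adjusted p-values were 1. In liver 0 of 9 passed, where 0.0504% of 11915 genes passed, and the lowest adjusted p was 0.48. Stc2 was filtered out in liver. At an unadjusted p under 0.05 there were 2 members in each tissue: Gdf15 and Stc2 in eWAT, Phgdh and Stc2 in iWAT, and Asns and Ddit3 in liver. The shares of all genes at that level were 5.75% in eWAT, 4.17% in iWAT and 6.04% in liver. DESeq2 called 1 member in eWAT, Gdf15, where it called 0.849% of all genes, none in iWAT, where it called 0.368%, and 1 in liver, Asns, where it called 0.542%. limma on FPKM called no member in any tissue.

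The KO and WT libraries did not overlap for 4 genes in eWAT, all higher in KO (Chac1, Sesn2, Stc2 and Gdf15), where 15% of all genes did not overlap, 7.46% higher and 7.54% lower in KO. In iWAT, on CPM scaled within the tissue, they did not overlap for Phgdh, Sesn2 and Stc2, higher in KO, and Gdf15, lower in KO. There 9.38% of all genes did not overlap, 4.34% higher and 5.03% lower in KO. With the deposited FPKM the iWAT genotypes overlapped for Gdf15 (0.94 to 1.28 in WT, 0.42 to 1.02 in KO). They also overlapped for Sesn2 (5.2 to 6.95 in WT, 6.77 to 8.46 in KO). In liver the KO and WT libraries did not overlap for Ddit3, higher in KO, and for Asns and Phgdh, lower in KO. There 13% of all genes did not overlap, 5.98% higher and 6.97% lower in KO. Without eWAT WT replicate 2, the same 4 genes were apart in eWAT and Asns, Psat1 and Ddit3 were lower in KO, where 17.3% of all genes were higher and 19.9% lower without overlap. The median log2 difference of the members was 0.11 in eWAT, 0.20 in iWAT and -0.21 in liver, beside medians of -0.02, 0.01 and -0.00 over all genes tested.

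**Figure D2:**
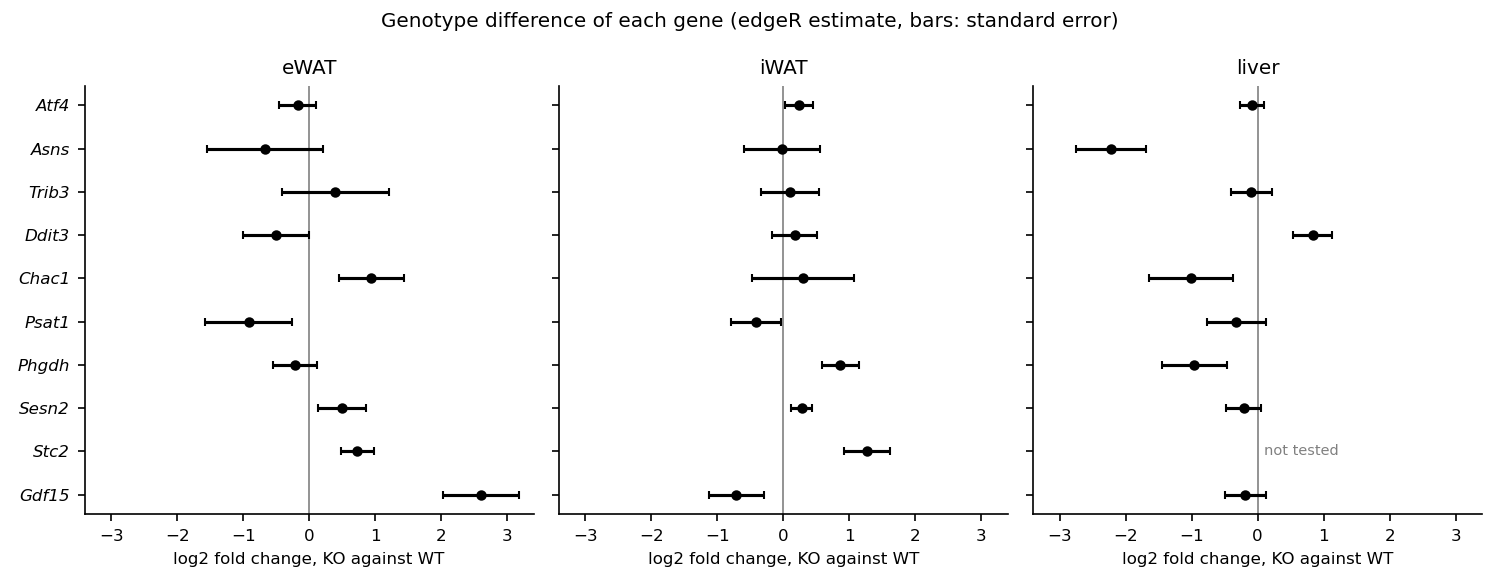
Difference between KO and WT of each of the 10 genes in eWAT, iWAT and liver, as edgeR's log2 fold change (point, horizontal axis) with its standard error (bar); Stc2 was not tested in liver. Gdf15 lies at 2.60 in eWAT and -0.71 in iWAT, and Asns at -2.22 in liver; none of the points passed the adjusted threshold.

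Values by gene below are CPM scaled over the 6 libraries of the tissue, in the order of replicates 1, 2 and 3, and differences are edgeR's log2 fold changes with their SE. Among the transcription regulators, Atf4, the factor at the centre of the pathway, differed little between genotypes. Its eWAT level was 174, 160 and 251 CPM in WT and 141, 188 and 192 CPM in KO. In liver it was 98.9, 135 and 102 CPM in WT and 117, 106 and 95.4 CPM in KO. In iWAT it was 141, 193 and 168 CPM in WT and 226, 164 and 201 CPM in KO. On this scale the ranges overlapped in all 3 tissues, and the differences were -0.17 ± 0.28 in eWAT, 0.24 ± 0.20 in iWAT and -0.08 ± 0.18 in liver. With FPKM the signs in eWAT and liver turned, to 0.19 and 0.04. In iWAT the FPKM values did not overlap, at 84.67 to 99.21 in WT and 106.32 to 124.79 in KO. FPKM moved the median of all genes in iWAT to 0.119.

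Ddit3 encodes CHOP, a factor that takes part in prolonged stress and cell death. In liver it was at 6.97, 10.1 and 4.23 CPM in WT and at 14.8, 11.5 and 11.5 CPM in KO. Every KO liver library lay above every WT one, by 0.83 ± 0.30, with an unadjusted p of 0.0204 and an edgeR adjusted p of 0.674. The same gene ranged from 11.3 to 41.5 CPM in eWAT WT, where replicate 2 was lowest and replicate 3 highest, and from 15.6 to 24.3 CPM in eWAT KO. In iWAT both genotypes lay between 14.3 and 31.9 CPM and overlapped. The rank order of Ddit3 over the 6 libraries equalled that of Adipoq in eWAT (r = 0.806, rho = 1.0) and in iWAT (r = 0.975, rho = 1.0), as a description over libraries that share their scaling. The eWAT difference of Ddit3 was -0.50 ± 0.50, -0.85 without WT replicate 2 and 0.03 with FPKM, and in iWAT the difference was 0.17 ± 0.34. Ddit3 shares 68 of its 1713 exonic bases with Mars, a gene on the opposite strand, and the sources used here do not say whether the counting used strand.

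Trib3 encodes a pseudokinase that is induced by ATF4 and CHOP and feeds back on them. The eWAT levels of Trib3 were 10.4, 1.13 and 12.9 CPM in WT and 10, 11.3 and 10.8 CPM in KO. The single low value belonged to WT replicate 2, the library with little Adipoq, and the other 5 libraries lay close together. Its difference there was 0.40 ± 0.81 with that library and -0.09 ± 0.25 without it. In iWAT Trib3 ranged from 5.76 to 16 CPM in WT and from 7.61 to 14.4 CPM in KO, and in liver both genotypes lay between 1.51 and 2.70 CPM.

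Of the amino acid synthesis enzymes, Asns, which makes asparagine from aspartate and glutamine and is among the best known ATF4 targets, had the largest liver difference of the 10 genes. It was at 14.7, 12.5 and 20.5 CPM in WT liver and at 3.11, 0.924 and 6.34 CPM in KO liver, from 341, 215 and 437 reads against 63, 24 and 126. All KO libraries lay below all WT libraries, and the spread within KO was wide, with replicate 2 lowest. The difference was -2.22 ± 0.53, with an unadjusted p of 0.00221, an edgeR adjusted p of 0.48 and a DESeq2 adjusted p of 0.00226. Left out in turn, no single library brought it past edgeR's threshold, and it ranged from -3.00 to -1.75. Without KO replicate 2, the liver library with the fewest Adipoq reads and no Gpx5 reads, it was -1.75 ± 0.37, with an edgeR adjusted p of 0.667. The 8 mature adipocyte markers summed to between 107 and 120 CPM in WT liver and between 105 and 144 CPM in KO liver. Their mean log2 CPM differed more, on the scale over all 18 libraries. It was 1.76 in KO replicate 2 and 3.06 to 3.62 in the other liver libraries. On the scale over all 18 libraries, erythroid markers were lower in KO liver (738 to 1550 CPM) than in WT liver (1720 to 2470 CPM) without overlap, as were B cell markers (5.48 to 7.32 against 7.41 to 9.02 CPM), and fibroblast and progenitor markers were higher (203 to 318 against 147 to 202 CPM). Their part in the liver values was not tested. In bulk tissue, fewer cells with a transcript and less of it per cell cannot be told apart, here or in any result that follows.

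Within each fat depot the libraries ranked by Asns as they ranked by Adipoq. Asns was at 273, 24.3 and 357 CPM in eWAT WT and at 100, 167 and 145 CPM in KO. The 2 WT libraries rich in Adipoq lay above all KO libraries, and WT replicate 2 lay far below them. The iWAT levels of Asns were 63.3, 211 and 158 CPM in WT and 246, 83.8 and 96.5 CPM in KO, with full overlap. Across the 6 libraries of each depot the rank order of Asns equalled that of Adipoq in eWAT (Pearson r = 0.966, Spearman rho = 1.0) and in iWAT (r = 0.984, rho = 1.0), given as a description over libraries that share their scaling. Per 1000 CPM of Adipoq, Asns lay between 71.8 and 105 CPM in 11 fat libraries and at 1420 CPM in eWAT WT replicate 2. The difference of Asns between genotypes was -0.67 ± 0.88 in eWAT and -0.02 ± 0.58 in iWAT, turned to 0.34 and 0.08 with FPKM, and was -1.18 ± 0.25 in eWAT without WT replicate 2, with an edgeR adjusted p of 0.235. Adipoq differed between those libraries in the same direction, 2970 and 3880 CPM in WT against 961 to 2320 CPM in KO, and its part in the Asns difference was not tested.

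**Figure D3:**
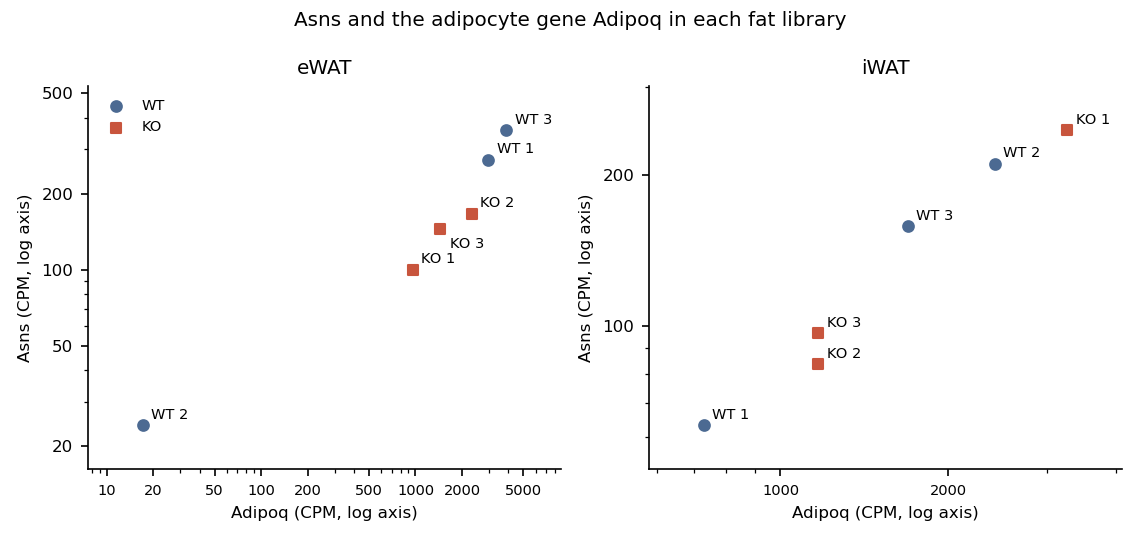
Asns against Adipoq in the 6 eWAT and 6 iWAT libraries, both in CPM scaled within the depot on log axes; circles are WT, squares KO, and each point carries its replicate number. The libraries keep the same order on both axes in each depot, and eWAT WT replicate 2 lies apart at 17.1 CPM of Adipoq and 24.3 CPM of Asns.

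Psat1 was likewise lowest in eWAT WT replicate 2. Its eWAT levels were 331, 77.1 and 466 CPM in WT and 109, 186 and 168 CPM in KO. Its rank order over the 6 eWAT libraries also equalled that of Adipoq (rho = 1.0), and the difference was -0.92 ± 0.66, or -1.36 ± 0.28 without WT replicate 2 with an edgeR adjusted p of 0.235. In iWAT Psat1 ranged from 77.6 to 173 CPM in WT and from 68.2 to 133 CPM in KO, with a difference of -0.42 ± 0.38, and in liver from 0.94 to 1.51 CPM in WT and from 0.539 to 1.46 CPM in KO.

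Phgdh, which opens the serine pathway, differed from Psat1 in iWAT. It was at 97.7, 119 and 83.4 CPM in iWAT WT and at 235, 123 and 189 CPM in iWAT KO. Every KO library lay above every WT library, narrowly for KO replicate 2, and the difference was 0.87 ± 0.28, with an unadjusted p of 0.0215 and an edgeR adjusted p of 1. In eWAT Phgdh ranged from 154 to 242 CPM in WT and from 123 to 226 CPM in KO, a difference of -0.22 ± 0.33 that was 0.11 with FPKM. In liver it was at 0.861, 0.755 and 0.564 CPM in WT and at 0.542, 0.193 and 0.403 CPM in KO, without overlap but on at most 20 reads in a library, with a difference of -0.96 ± 0.49. KO replicate 2, the liver library with the least Adipoq and no Gpx5 reads, was also the lowest for Phgdh and Psat1. The part of reads from other tissues in these liver values was not tested.

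Chac1 encodes an enzyme that degrades glutathione. The eWAT libraries held 4.79, 4.53 and 2.28 CPM of Chac1 in WT and 5.86, 10.6 and 5.89 CPM in KO. All KO libraries lay above all WT libraries, by 0.94 ± 0.49, with an edgeR adjusted p of 0.706. The difference was 0.72 without WT replicate 3, the library with the highest mitochondrial share, 0.59 without KO replicate 2 and 1.58 in the 3 libraries without abundant epididymal transcripts. In iWAT Chac1 overlapped between genotypes, from 1.13 to 7.27 CPM in WT and from 2.36 to 5.39 CPM in KO, and its difference of 0.30 ± 0.77 became 1.58 ± 0.50 without WT replicate 2, the iWAT library that stood apart in B cell, muscle and fibroblast markers, and turned to -0.09 without WT replicate 3. In liver it was below 1 CPM in every library, on 2 to 21 reads.

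Sesn2 encodes a sestrin that holds back the growth kinase complex mTORC1 when leucine is scarce. In eWAT it was at 33.7, 35.6 and 15.3 CPM in WT and at 36.6, 46.9 and 36.3 CPM in KO. In iWAT it was at 23.3, 22.4 and 18.7 CPM in WT and at 24.7, 26.3 and 26.9 CPM in KO. The KO libraries lay above the WT libraries in both depots by margins smaller than the spread within a group, with differences of 0.50 ± 0.36 and 0.28 ± 0.16, and edgeR adjusted p-values of 0.724 and 1. With the deposited FPKM the iWAT ranges of Sesn2 overlapped, at 5.2 to 6.95 in WT and 6.77 to 8.46 in KO. The eWAT difference of Sesn2 was 0.26 without WT replicate 3, which had the lowest Sesn2 and the highest mitochondrial share, and 0.94 in the 3 libraries without abundant epididymal transcripts. In liver Sesn2 was between 5.69 and 11.2 CPM in WT and between 6.36 and 8.14 CPM in KO.

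The genes for secreted proteins, Gdf15 and Stc2, held the lowest unadjusted p-values of the 10 in eWAT. Stc2 encodes stanniocalcin 2, a glycoprotein that inhibits the protease PAPP-A in the insulin-like growth factor system. In eWAT it was at 19.9, 17.7 and 13.5 CPM in WT and at 23.4, 28.8 and 32.1 CPM in KO, and in iWAT at 8.48, 6.49 and 5.44 CPM in WT and at 24.2, 12.3 and 12.7 CPM in KO. All KO libraries lay above all WT libraries in both depots. The difference was 0.73 ± 0.25 in eWAT, with an unadjusted p of 0.0271 and an edgeR adjusted p of 0.706, and 1.27 ± 0.35 in iWAT, with an unadjusted p of 0.0105 and an edgeR adjusted p of 1. Leaving out each library in turn kept it between 0.61 and 0.85 in eWAT and between 0.90 and 1.46 in iWAT. It was 0.79 ± 0.42 in eWAT once WT replicate 2 and KO replicates 1 and 3, rich in Crisp1, were left out. In liver Stc2 had 2 to 5 reads per library and was filtered out before the test.

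Gdf15, a distant member of the transforming growth factor beta family whose receptor in the hindbrain lowers food intake, had the largest fold difference in eWAT and the opposite sign in iWAT. In eWAT it was at 0.361, 0.597 and 0.285 CPM in WT, from 7, 10 and 5 reads, and at 2.88, 1.94 and 2.79 CPM in KO, from 90, 36 and 52 reads. In iWAT it was at 1.89, 1.68 and 1.39 CPM in WT and at 0.674, 0.982 and 1.37 CPM in KO. The eWAT groups were well separated, while in iWAT the highest KO library lay just under the lowest WT library. With the deposited FPKM the iWAT groups of Gdf15 overlapped, on 18 to 41 reads per library. In liver the level was 3.57, 3.37 and 1.79 CPM in WT and 2.56, 2.73 and 2.37 CPM in KO, with the KO range inside that of WT.

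The eWAT difference of Gdf15 was 2.60 ± 0.57, with an unadjusted p of 0.00386, an edgeR adjusted p of 0.706 and a DESeq2 adjusted p of 0.00554. It was 1.17 with limma on log2(FPKM + 1) and 2.45 with log2(FPKM + 0.1), between 2.45 and 2.99 with any single library left out and 2.56 ± 1.51 in the 3 eWAT libraries, 2 WT and 1 KO, without abundant epididymal transcripts. In iWAT the difference was -0.71 ± 0.42, with an edgeR adjusted p of 1, and in liver -0.18 ± 0.31, with an edgeR adjusted p of 0.933. The summed level of 8 macrophage markers, all with reads in every fat library, moved in the same direction as Gdf15: 223 to 991 CPM in eWAT WT against 898 to 1590 CPM in eWAT KO, and 1440 to 2330 CPM in iWAT WT against 1060 to 1250 CPM in iWAT KO. Over the 6 libraries of a depot the rank correlation of Gdf15 with that sum was 0.371 in eWAT and 0.829 in iWAT, as a description. Other members had larger ones in size, Chac1 (0.886), Stc2 (0.829), Sesn2 (0.6) and Trib3 (0.429) in eWAT and Stc2 (-0.886) in iWAT. With Adipoq the rank correlation of Gdf15 was -0.657 in eWAT and -0.429 in iWAT. The macrophage sums of the genotypes overlapped in eWAT and lay apart in iWAT. Other marker lists separated the genotypes without overlap, on the scale over all 18 libraries: fibroblast and progenitor markers in iWAT (1940 to 5440 CPM in WT, 1110 to 1640 CPM in KO) and skeletal muscle markers in eWAT (1.98 to 12.7 CPM in WT, 15.3 to 36.5 CPM in KO). So did T cell markers in eWAT (3.33 to 3.68 and 3.9 to 8.1 CPM). In iWAT so did hepatic stellate markers (958 to 1590 and 491 to 890 CPM), a list that shares Dcn with the fibroblast list. Spermatid markers in iWAT were also apart, at 0 to 0.112 CPM in WT and at 23.7, 0.258 and 0.398 CPM in KO replicates 1, 2 and 3. The part of these cell types in the values of Gdf15 and the other members was not tested.

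The difference between depots in the Gdf15 genotype effect was tested directly in a fit of all 18 libraries. The effect in iWAT minus that in eWAT was -3.34 ± 0.63 on the log2 scale, with an unadjusted p of 8.98e-05, an edgeR adjusted p of 0.397 and a DESeq2 adjusted p of 0.000158. With limma on log2(FPKM + 1) it was -1.45, with an adjusted p of 0.155. Only 1 of the 15717 genes tested had a lower p in that comparison. The effect in liver minus that in eWAT was -2.84 ± 0.62, with an edgeR adjusted p of 0.54 and a DESeq2 adjusted p of 0.00358. Both comparisons use the same eWAT libraries. For Phgdh the effect in liver minus that in iWAT was -1.82 ± 0.50, with an unadjusted p of 0.00232 and an edgeR adjusted p of 1. No member passed edgeR's test in any of the 3 comparisons of effects, where 0% of genes passed; 2 members each had an unadjusted p under 0.05 against eWAT (5.82% of all genes for iWAT and 6.36% for liver), and 1 between liver and iWAT (2.63%). DESeq2 called Gdf15 and no other member against eWAT, where it called 0.329% of all genes for iWAT and 0.267% for liver, and no member between liver and iWAT, where it called 0.0641%.

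**Figure D4:**
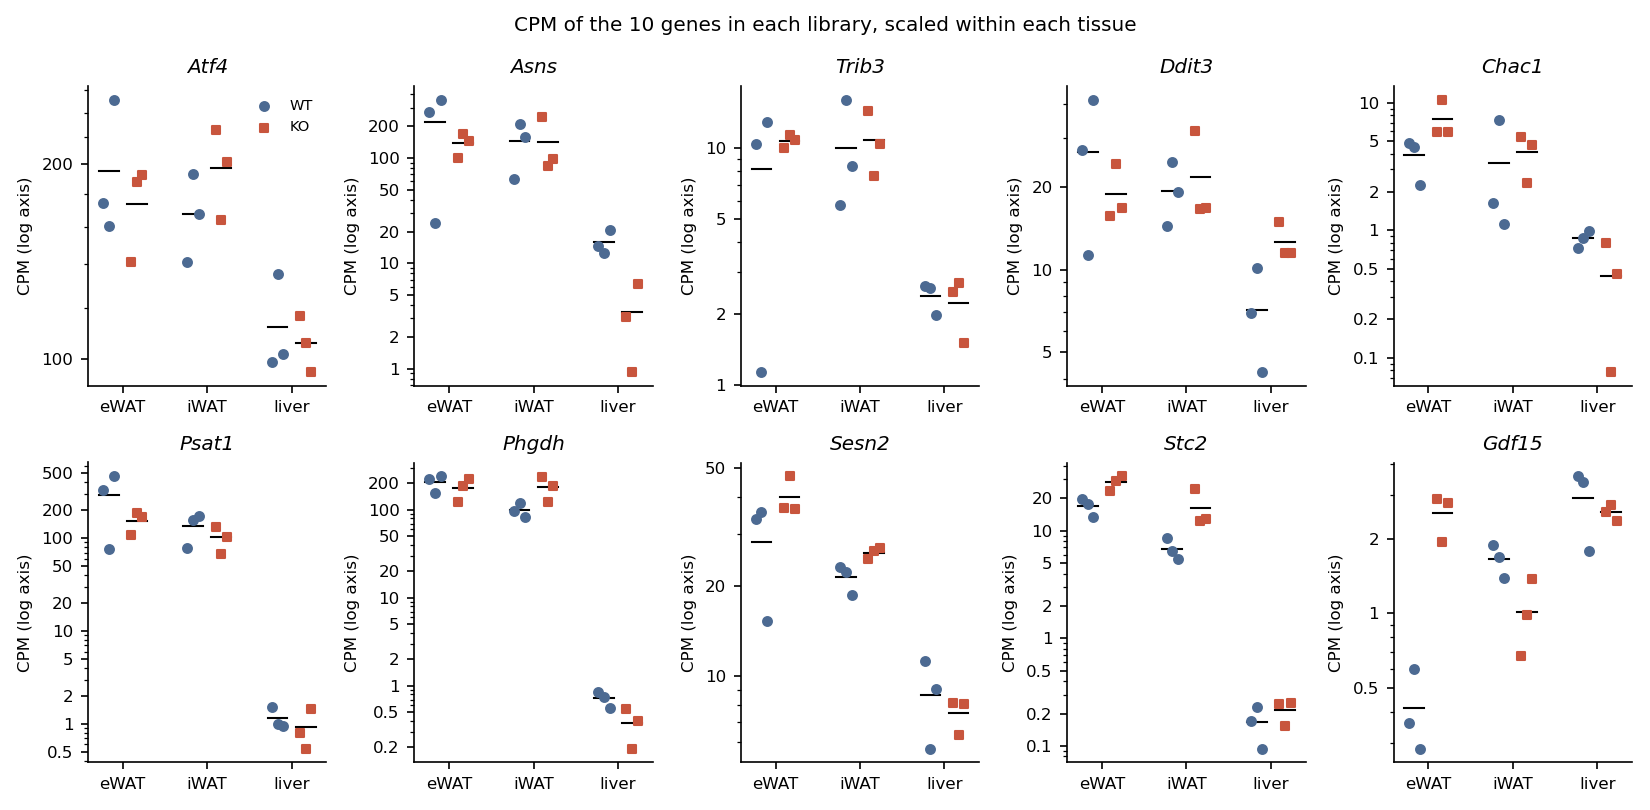
CPM of each of the 10 genes in every library (vertical log axis), scaled within eWAT, iWAT or liver, so that heights compare genotypes within a tissue; circles are WT, squares KO, in the order of replicates, and bars are group means. On this scale the KO libraries of Gdf15 lie above WT in eWAT and narrowly below in iWAT. Those of Asns lie below WT in liver, and eWAT WT replicate 2 is low for Asns, Trib3, Ddit3 and Psat1.

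Other genes of the pathway were described in 10 lists, and no list held a gene that passed edgeR's test in any tissue. Of all genes tested, 51.5% were lower in KO in eWAT, 48.0% in iWAT and 50.3% in liver. With FPKM, where the median of all genes moved to 0.31, 0.12 and 0.09, those shares were 24.1%, 31.8% and 35.4%, so that the directions of the lists below hold for the TMM scale and are given with FPKM where they turned. The kinases that phosphorylate eIF2alpha, with the phosphatase regulators and eIF2B subunits, had 12 genes tested and medians of -0.16 in eWAT (0.15 with FPKM), 0.00 in iWAT and 0.01 in liver. In that list Eif2ak2, the kinase activated by double-stranded RNA, was at 2.54, 3.02 and 2.35 CPM in WT liver and at 3.85, 4.01 and 4.98 CPM in KO liver, a difference of 0.70 ± 0.25 with an unadjusted p of 0.0191. Of 26 other ATF4 and CHOP targets, 10 were higher and 16 lower in KO eWAT, 12 higher and 14 lower in KO iWAT, and 9 higher and 14 lower of 23 tested in KO liver. The medians of those targets were -0.15, -0.03 and -0.09, and 0.28, 0.10 and 0.04 with FPKM.

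Among those targets, Atf3, a stress-induced transcription factor, was at 7.12, 6.14 and 5.47 CPM in WT eWAT and at 11.9, 17.9 and 15.3 CPM in KO eWAT, with a difference of 1.27 ± 0.30 and an unadjusted p of 0.00541. In liver Atf3 was at 3.66, 2.90 and 2.77 CPM in WT and at 4.78, 5.97 and 4.88 CPM in KO, a difference of 0.74 ± 0.24 with an unadjusted p of 0.012. The KO libraries of Atf3 lay above the WT libraries in both tissues. Ddit4, which inhibits mTORC1, was at 24.9, 32.1 and 32.5 CPM in WT iWAT and at 54.2, 55.9 and 61.3 CPM in KO iWAT, a difference of 0.94 ± 0.17 with an unadjusted p of 0.00112. Aldh1l2 of the same list was lower in KO iWAT without overlap, with a difference of -1.465 ± 0.41 and an unadjusted edgeR p of 0.0109. Xpot was lower in KO without overlap in both depots, by differences of -0.40 in eWAT and -0.34 in iWAT. An unadjusted edgeR p under 0.05 was held by 1 of 26 targets in eWAT, 2 of 26 in iWAT and 4 of 23 in liver. The shares of all genes were 5.75%, 4.17% and 6.04%. In the list of secreted stress factors, Fgf21, a hormone of the liver, was at 1.33, 0.697 and 0.517 CPM in WT liver and at 5.33, 2.0 and 1.66 CPM in KO liver, a difference of 1.79 ± 0.54 with an unadjusted p of 0.00826. The KO liver libraries of Fgf21 thus lay above all WT ones, opposite in direction to Asns in the same libraries.

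The serine, glycine, one-carbon and proline genes had a median of -0.22 in liver, where 11 of 13 tested were lower in KO. In eWAT 8 of 15 were lower in KO with a median of -0.26, which turned to 0.94 without WT replicate 2 and to 0.10 with FPKM. In eWAT Psph, the phosphatase that completes serine synthesis after Phgdh and Psat1, was at 34.1, 17.0 and 56.6 CPM in WT and at 14.2, 11.5 and 15 CPM in KO, a difference of -1.40 ± 0.46 with an unadjusted p of 0.0224. Of the 10 amino acid transporters tested in liver, 6 were higher and 4 lower in KO, with a median of 0.08. Among the lower ones, Slc1a4, a carrier of alanine and serine, was at 28.4, 11.4 and 10.7 CPM in WT liver. In KO liver Slc1a4 was at 5.42, 5.62 and 8.05 CPM, a difference of -1.41 ± 0.38 with an unadjusted edgeR p of 0.00469. The KO libraries of Psph and Slc1a4 lay below all WT libraries in those tissues.

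All 20 cytosolic tRNA synthetases were lower in KO eWAT and 18 of 20 in KO liver, by medians of -0.22 and -0.16, and none had an unadjusted p under 0.05 in either tissue. In iWAT 12 of 20 were lower. The eWAT count was 16 of 20 without WT replicate 2 and 5 of 20 with FPKM, where the median turned to 0.12, and the iWAT median turned from -0.08 to 0.02 with FPKM. Of the 16 genes of the unfolded protein response in the endoplasmic reticulum, 15 were lower in KO eWAT, 15 in KO iWAT and 11 in KO liver, by medians of -0.94, -0.21 and -0.22. Without eWAT WT replicate 2 the direction in eWAT turned, to 5 of 16 lower and a median of 0.46, and with FPKM 8 of 16 were lower there. In that list Xbp1, its transcription factor, was at 304, 323 and 302 CPM in WT liver and at 224, 225 and 213 CPM in KO liver, a difference of -0.49 ± 0.15 with an unadjusted p of 0.00988. Dnajc3, a co-chaperone, was at 477 CPM in eWAT WT replicate 2 and at 191 and 197 CPM in the other WT libraries of eWAT. The 10 mitochondrial stress chaperones and proteases were all lower in KO eWAT, by a median of -0.60, and had medians of -0.15 in iWAT and -0.01 in liver. Without eWAT WT replicate 2, 9 of the 10 were lower in KO eWAT, by a median of -0.85, and with FPKM 7 of 10.

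Genes of amino acid sensing by mTORC1 had medians of 0.01, -0.04 and 0.07 in eWAT, iWAT and liver, and of 0.29, 0.06 and 0.12 with FPKM. Of the p53 targets, which were listed because p53 also induces Sesn2 and Gdf15, the cell cycle inhibitor Cdkn1a was at 4.69, 3.31 and 2.87 CPM in WT liver and at 10.1, 6.78 and 9.66 CPM in KO liver. Its KO libraries lay above all WT libraries, by 1.28 ± 0.27, with an unadjusted p of 0.000868 and an edgeR adjusted p of 0.357. The medians of the p53 list were 0.14, -0.04 and 0.20, and 0.43, 0.12 and 0.25 with FPKM. The receptor of GDF15, Gfral, is known from the hindbrain, and 1 read of it was counted in the 18 libraries, in KO eWAT.

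The 10 genes did not move as a single block from library to library. With each gene's log2 CPM centred within its tissue, the 45 pairs of genes had Pearson correlations over the 18 libraries between -0.529 (Atf4 with Sesn2) and 0.789 (Asns with Psat1), with a median of 0.22, and 11 pairs were above 0.5. These values describe libraries that share their scaling and the differences in tissue make-up given above. Asns correlated with Phgdh at 0.663 and with Trib3 at 0.559, Atf4 with Ddit3 at 0.601, and Atf4 with Gdf15 at -0.339. Measured in the same way over 9888 other genes, the genes most like Gdf15 were Ptgr1 (r = 0.865), Nceh1 (0.813), Thbs2 (0.805), Tmem132a (0.792) and Zyx (0.788). The genes most like Asns were Slc26a6 (r = 0.877), Smyd2 (0.851), Tmem185a (0.834), Slc1a5 (0.833) and Nfil3 (0.831).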

How the data were processed

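Polyadenylated RNA of 18 mouse libraries was sequenced. Per the submitters' processing notes, the tools were RSEM, HISAT2, Bowtie2 2.2.8, StringTie 1.3.1, edgeR, DESeq2 and fastp 0.18.0, with build mm10; annotation release, strand setting and the role of each tool were not given in the sources used here. For each gene the authors deposited an expected count, of which 8.33% were not whole (0.01 or more from a whole number), and an FPKM value scaled by gene length and depth.

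The members and gene lists were chosen with earlier results of these data known. Expected counts were rounded. Genes were kept by filterByExpr (minimum count 10, minimum total 15), scaled by TMM and tested by edgeR 4.0.16 (quasi-likelihood, robust) in R 4.3.3 with Benjamini-Hochberg adjustment over all genes tested and a threshold of 0.05. The SE of a log2 difference is its size over the root of the F statistic. Each tissue had its own genotype fit, the effects were compared in a fit of all 18 libraries, and tissues were compared within WT and within KO. Levels between genes used the deposited FPKM. With 3 libraries against 3 an exact permutation test cannot go below p = 0.1, and none was run.

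Named were the 10 members, up to 4 genes of a list in order of unadjusted p, and the 5 genes most like Gdf15 and Asns among genes whose mean log2 CPM was 1 or more. A second identifier of Ddit3, with 1.9 and 0.97 reads in 2 libraries, was left out. Alternatives were median-of-ratios scaling, no filter, DESeq2 1.42.0, limma 3.58.1 on log2(FPKM + 1) or log2(FPKM + 0.1), also with no minimum mean FPKM (otherwise 1), a replicate block, a fit of all libraries and leaving out each library. The edgeR step was also run on simulated counts with known changes, drawn with its own fitted dispersions. Such counts include no library of mixed tissue, so that run cannot speak for one.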

Additional observations from a re-analysis of the deposited data

How the results depend on the processing

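For the 63 results on single members, 940 alternatives were run: 828 kept direction and side of the threshold, 67 lost a call, 40 reversed and 5 gained a call.

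Counts of genes called between genotypes moved as follows. In eWAT, where the count was 0, it was 128 with DESeq2, 4 in the fit of all 18 libraries and 25 in the 3 libraries without abundant epididymal transcripts, an alternative chosen after seeing the data. In iWAT it was 58 with DESeq2. In liver the count of 6 became 0 in the fit of all libraries, 11 without a filter, 63 with DESeq2, 0 with limma on FPKM without a filter, and 0 to 25 with a library left out. For iWAT minus eWAT it was 46 with DESeq2, 3 with FPKM and 0 to 14 with a library left out; for liver minus eWAT 47, 2 and 0 to 6; for liver minus iWAT 12 with DESeq2 and 0 to 1.

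Between tissues, iWAT against eWAT in WT went from 2 to 1875 with DESeq2, 18 with FPKM and 0 to 751 with a library left out. In KO it went from 2105 to 3809 with DESeq2, 382 without the 2 epididymal libraries and 369 to 3492. Liver against eWAT in WT ranged from 4424 to 7319 with a library left out.

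With FPKM (pseudocount 1 and 0.1) the genotype difference reversed for Atf4 (0.189, 0.191), Asns (0.335, 0.358), Ddit3 (0.027, 0.034) and Phgdh (0.108, 0.109) in eWAT, Asns (0.083, 0.085) in iWAT and Atf4 (0.038, 0.039) in liver. FPKM moved the median of all genes to 0.306, 0.119 and 0.088 in these tissues, and relative to it (pseudocount 1) only Asns in eWAT was above 0. Between tissues Atf4 reversed with FPKM for liver against iWAT in WT (-0.571) and against eWAT (-0.808) and iWAT (-0.879) in KO, as did Ddit3 (-0.644) and Gdf15 (-0.066) in liver against eWAT in KO, beside medians of all genes from -1.2 to -1.14. Trib3 in eWAT was -0.045 in the 3 libraries.

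With a library left out, the sign turned within these ranges: in eWAT Atf4 -0.275 to 0.1, Trib3 -0.092 to 0.95 and Ddit3 -0.847 to 0.019; in iWAT Asns -0.652 to 0.351, Trib3 -0.174 to 0.608, Ddit3 -0.186 to 0.376 and Chac1 -0.09 to 1.58; in liver Atf4 -0.16 to 0.081, Trib3 -0.249 to 0.117 and Sesn2 -0.434 to 0.021. Where a group kept 2 libraries, their spread was pooled with the rest.

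Taking the replicate number as a block left 0 genes called in eWAT and iWAT, gave 39 in liver and 0 for iWAT against eWAT in WT, and called Asns in liver (-2.46, edgeR adjusted p = 0.00785). No label says whether the numbers pair the samples. Of the same-numbered WT to KO pairs, 2 of 9 deviated together with a correlation over 0.1, and 1 of 9 samples correlated best with its own number. Between tissues these counts were 1 of 18 pairs and 4 of 18 samples. As deviations from means of 3 libraries that differ in tissue make-up, these correlations cannot decide whether the samples were paired.

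Depth limited Gdf15 in eWAT WT (5 to 10 reads) and Stc2, Phgdh and Chac1 in liver (at most 21 reads). The causes of the changes between alternatives were not tested.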
